A study of Mus musculus with 8 samples.

Results

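The class I and class II histone deacetylases were examined in inflamed mouse back skin, as the 10 genes Hdac1 to Hdac10, taken by symbol from a table of 25378 genes. All 10 were present in the table. Hdac11 and the sirtuins, which belong to other classes, were kept as a comparison. RNA was sequenced from 8 wild-type female C57BL/6 mice, 6 weeks of age, and every mouse had its back skin treated with MC903 (5 nmol) on 10 days in a row. MC903, or calcipotriol, is an analog of vitamin D used to induce an atopic dermatitis-like lesion. In 4 mice, 1 mM propionic acid was put on the skin 1 h after MC903, and the other 4 mice were given a control whose composition is not stated. Lesions were collected on day 11. All mice carried the MC903 lesion, so the comparison is between treatments of lesional skin, and each group has 4 biological replicates per the labels.

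Histone deacetylases remove acetyl groups from lysines of histone tails and of other proteins, and work against the acetyltransferases. Class I enzymes are mostly nuclear and sit in corepressor complexes. Class IIa enzymes bind MEF2 transcription factors, shuttle between nucleus and cytoplasm under the control of kinases, and have weak catalytic activity of their own. The class IIb enzymes are mainly cytoplasmic. Short-chain fatty acids such as butyrate and propionate are known inhibitors of several of these enzymes in cultured cells. That inhibition acts on the protein, whereas the values here are mRNA levels.

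Messenger RNA of the deacetylases did not differ detectably between propionic acid and control skin. Of the 10 members, 8 passed the filter of 1 FPKM or more in at least 4 libraries (FPKM, fragments per kilobase of gene, scaled to the depth of the library) and were tested in 1 fit of 12598 genes. With limma on log2(FPKM + 1) and Benjamini-Hochberg adjustment, 0 members had an adjusted p under 0.05, and 0 of 12598 genes did (0.0%). At an unadjusted p under 0.05 there were 0 of 8 members, against 6.29% of all genes tested (4.07% higher and 2.21% lower with propionic acid). In voom on recovered reads, which tested all 10 members among 16460 genes, 0 members passed either limit, against 0.0% of genes at the adjusted and 6.52% at the unadjusted one (3.88% higher, 2.65% lower). Of the 8 members, 4 were higher with propionic acid on average and 4 were lower (Hdac6 turned to lower with median-of-ratios scaling and with voom), and the median log2 fold change was 0.00, against 0.01 over all genes tested. The propionic acid and control values overlapped for all 8, whereas they did not for 3.16% of all genes tested (2.06% higher and 1.1% lower with propionic acid).

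The libraries held 39034193 to 40194111 reads, which could be recovered from the steps between FPKM values, so depth was nearly equal. A member had between 132 and 4235 reads in a library. Marker genes of keratinocytes, 10 of 10 detected in every library, summed to between 7477 and 10848 FPKM in propionic acid skin and between 7430 and 10616 FPKM in control skin. The 18 skeletal muscle markers summed to between 5039 and 10528 FPKM with propionic acid and between 4791 and 7534 FPKM in control skin. The 10 adipocyte markers summed to between 1651 and 3296 FPKM with propionic acid and between 1507 and 2408 FPKM in control skin. All of these muscle and fat markers were detected in every library. At an unadjusted p under 0.05, 5 muscle markers were higher and 2 lower, and 6 adipocyte markers were higher, with 0 past the adjusted threshold. Over all genes tested, 4.07% were higher and 2.21% lower at the unadjusted limit. The 10 leukocyte markers summed to between 1268 and 2408 FPKM with propionic acid and between 1017 and 1559 FPKM in control skin. The 10 hair follicle markers, 4 of them at 0 in some library, summed to between 67.3 and 252 FPKM with propionic acid. In control skin they summed to between 53.8 and 82.4 FPKM. The share of each tissue layer in a sample was not measured, and in bulk RNA fewer cells of a type and less RNA per cell cannot be told apart. With the muscle list as a covariate the log2 fold change was -0.04 for Hdac4 (-0.17 without it), 0.19 for Hdac6 (0.01 without it) and 0.10 for Hdac7 (-0.02 without it). The part of fat content in the member values was not tested.

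Levels of the members spanned a wide range, and 4 of them rest on unusually long gene models. Dividing recovered reads by FPKM and by the library total gives the gene length that the FPKM values imply. For Hdac1, Hdac2, Hdac3, Hdac5, Hdac6 and Hdac10 this length was 0.837 to 1.029 times the longest protein-coding transcript in GENCODE vM21, and the median over tested genes with such a transcript was 1.06. For Hdac4, Hdac7, Hdac9 and Hdac8 it was 2.74, 3.67, 3.21 and 8.87 times as long. For Hdac8 this is 17166 bases implied against a longest coding transcript of 1936 bases. A ratio of 2 or more was found for 8.39% of the 11992 tested genes that could be compared. FPKM values of these 4 members are therefore low relative to the other 6 for the same number of reads, and levels are given below on the deposited scale and also per kilobase of the longest coding transcript, called rescaled FPKM. Rescaled FPKM take every read of a gene as coming from that transcript. This was not tested, and the rescaled level is too high where reads lie in the rest of a long model. A fold change between groups does not depend on the length, apart from the pseudocount.

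**Figure D1:**
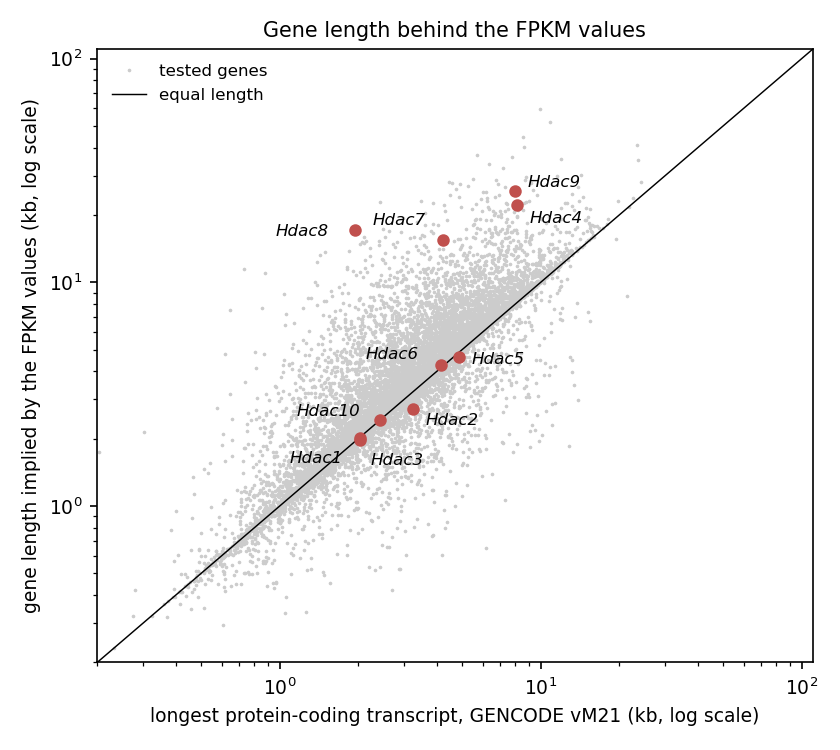
Gene length implied by the deposited FPKM values (vertical axis, kb, log scale) against the longest protein-coding transcript of GENCODE vM21 (horizontal axis, kb, log scale) for tested genes (grey) and the 10 deacetylases (red); the line marks equal length. Hdac4, Hdac7, Hdac8 and Hdac9 lie well above the line, at 2.74 to 8.87 times the transcript length, and the other 6 lie on or near it.

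On the deposited scale the order over all 8 mice was Hdac1 (43.4 ± 2.70 FPKM, SD, n = 8), Hdac3 (42.8 ± 2.13), Hdac2 (33.9 ± 3.49), Hdac5 (14.5 ± 1.63), Hdac6 (4.10 ± 0.762), Hdac10 (4.08 ± 0.343), Hdac7 (2.57 ± 0.409), Hdac4 (1.53 ± 0.332), Hdac8 (0.533 ± 0.0852) and Hdac9 (0.169 ± 0.0422). Hdac1 was above Hdac3 in 4 of 8 mice and Hdac6 above Hdac10 in 5 of 8, so the order within these pairs is not settled. Every other neighbour was lower in 8 of 8 mice, although the ranges of Hdac7 and Hdac4 over all mice overlapped. Per kilobase of the longest coding transcript, Hdac7 reached 9.42 rescaled FPKM and took the fifth place, and Hdac8 reached 4.73 ± 0.756 and took the sixth. Hdac8, Hdac6, Hdac4 and Hdac10 then lay between 4.10 and 4.73 rescaled FPKM with overlapping ranges between neighbours, and Hdac9 remained lowest at 0.543 ± 0.136. Hdac1, Hdac2 and Hdac3 together made up 81.0 ± 1.86% of the summed FPKM of the 10 members in propionic acid skin and 81.7 ± 0.603% in control skin (SD, n = 4 each). On the rescaled values their share was 73.2 ± 2.75% with propionic acid and 73.5 ± 1.24% in control skin.

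**Figure D2:**
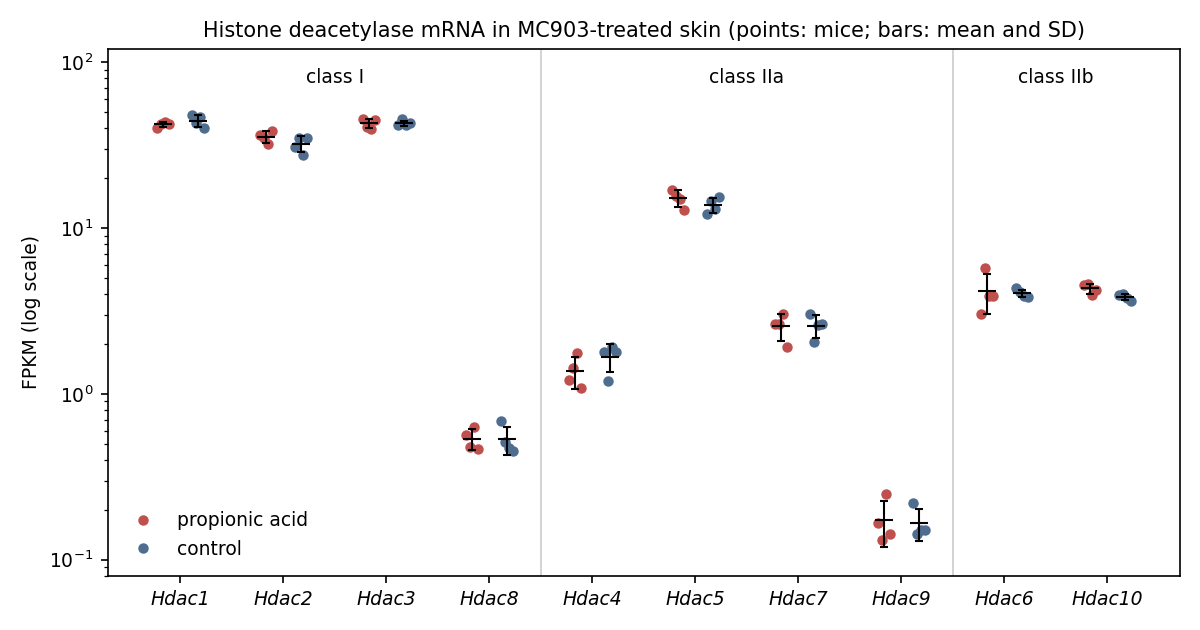
FPKM of each deacetylase (vertical axis, log scale) in propionic acid (red) and control (blue) skin, grouped by class; points are mice, and black bars give the mean and SD of 4 mice. Hdac1, Hdac2 and Hdac3 lie near or above 30 FPKM in both groups, Hdac9 lies near 0.2 FPKM, and the groups overlap for every member, least for Hdac10.

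Promoter sequence was looked at beside these levels, as a description of how the genes differ. Windows of 250 bases before RefSeq start sites (build GRCm38.p6) were used for 7 of the 10 members, with 11 windows in all. Hdac1, Hdac3 and Hdac10 were not covered. Of 32851 such windows the median held 6 CG dinucleotides. The first window below belongs to Hdac2, the most abundant of these 7 members. Those of Hdac5 and Hdac9 belong to the most and least abundant class IIa genes, and the last to the class IIb gene Hdac6. They are written 5′ to 3′ on the strand of the gene, with every CG dinucleotide in capitals.
Hdac2: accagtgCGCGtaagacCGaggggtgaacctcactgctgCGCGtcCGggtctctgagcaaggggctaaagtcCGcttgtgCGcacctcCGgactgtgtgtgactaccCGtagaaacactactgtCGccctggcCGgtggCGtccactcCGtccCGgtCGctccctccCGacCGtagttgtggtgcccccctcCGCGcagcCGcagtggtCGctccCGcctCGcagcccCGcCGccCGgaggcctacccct
Hdac5: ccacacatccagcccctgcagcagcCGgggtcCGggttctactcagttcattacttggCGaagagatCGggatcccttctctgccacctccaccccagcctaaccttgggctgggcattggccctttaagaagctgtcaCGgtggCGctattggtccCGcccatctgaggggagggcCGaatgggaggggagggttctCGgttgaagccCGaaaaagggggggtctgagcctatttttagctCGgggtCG
Hdac9: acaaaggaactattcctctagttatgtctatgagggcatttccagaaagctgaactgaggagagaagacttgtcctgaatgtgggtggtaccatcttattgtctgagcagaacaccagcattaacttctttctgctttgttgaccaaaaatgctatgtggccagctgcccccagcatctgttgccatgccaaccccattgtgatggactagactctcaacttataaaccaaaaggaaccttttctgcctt
Hdac6: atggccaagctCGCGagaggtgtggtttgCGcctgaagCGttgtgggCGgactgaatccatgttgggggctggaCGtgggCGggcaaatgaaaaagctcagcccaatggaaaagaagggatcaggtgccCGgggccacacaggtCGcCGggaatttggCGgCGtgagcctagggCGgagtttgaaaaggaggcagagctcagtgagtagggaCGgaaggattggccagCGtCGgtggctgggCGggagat

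The Hdac2 window (chr10:36974294-36974543, plus strand) held 27 CG dinucleotides, and 8.56% of all windows held as many. The Hdac5 window (chr11:102230173-102230422, minus strand) held 12, which 33.5% of windows reached. The Hdac9 window at the outer start (chr12:34917096-34917345, minus strand) held 0, as did 7.87% of all windows, and the inner Hdac9 start had 2. The Hdac6 window (chrX:7947890-7948139, minus strand) held 17. The motif GGGCGG, counted on both strands, occurred 4 times in the Hdac6 window, 4 times in that of Hdac4, 1 time each in those of Hdac2 and Hdac5 and 0 times in both Hdac9 windows and in that of Hdac8. The 4 Hdac7 windows held 1 in all. It was present in 32.7% of all windows. The CG counts were not in the order of the mRNA levels: the windows of the low-level genes Hdac4 (23 CG) and Hdac7 (5 to 25 CG over 4 starts) included higher counts than that of Hdac5. None of the 4 printed windows overlapped an annotated exon.

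Hdac1 and Hdac2 are close paralogs that act as a pair in the Sin3, NuRD and CoREST corepressor complexes. Their coding sequences were 76.2% identical over 1435 aligned bases, the highest value over a nearly complete alignment among the members. Hdac1 (ENSMUSG00000028800, mm10 chr4:129516104-129542713) had 40.2, 42.5, 43.8 and 42.7 FPKM in propionic acid skin, against 47.8, 42.9, 46.6 and 40.3 FPKM in control skin. Control replicates 1 and 3 were the highest and the ranges overlapped. The means were 42.3 ± 1.51 with propionic acid and 44.4 ± 3.44 in control skin (SD, n = 4 each), and the log2 fold change was -0.07, SE 0.09 (limma adjusted p = 0.915). The 95% confidence interval corresponds to 0.827 to 1.103 times the control level. Of 50-base windows in the Hdac1 transcript, 58.7% also occur in processed pseudogenes, mainly Gm10093 on chromosome 17. It is not given how reads with several matches were treated, so the Hdac1 level is uncertain in this respect. Among the other members the largest share of such windows was 1.08%, in Hdac4. The dependence of Hdac4, Hdac7, Hdac8 and Hdac9 levels on gene length is a separate matter.

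Hdac2 (ENSMUSG00000019777, chr10:36974544-37001889) had 36.6, 35.1, 31.98 and 38.7 FPKM with propionic acid, against 31.0, 35.0, 27.7 and 35.2 FPKM in control skin. The 2 lowest values were both in control mice, replicates 1 and 3, while the others of that group lay within the propionic acid range. The log2 fold change was 0.14, SE 0.11 (limma adjusted p = 0.874), and the interval runs from 0.93 to 1.31 times the control level. Control replicates 1 and 3 also had the highest values on the first principal component of all tested genes, 31.8 and 26.7. Propionic acid replicate 1 lay far out on the other side, at -26.0. Without control replicates 1 and 3, a choice made after the data were seen, the log2 fold change of Hdac2 was 0.02. Since these mice held its 2 lowest values, leaving them out was bound to shrink the difference. None of its 50-base windows occurred in another gene.

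Hdac3, the catalytic subunit of the NCoR complex, varied least of all members. It had 45.5, 40.9, 39.9 and 44.8 FPKM in propionic acid skin, against 41.6, 45.2, 41.8 and 42.8 FPKM in control skin, and the groups covered nearly the same range. Its coefficient of variation over the 8 mice was 4.97%, and 0.945% of tested genes had a smaller one. The log2 fold change was 0.00, SE 0.09 (limma adjusted p = 0.998), and the interval corresponds to 0.868 to 1.15 times the control level.

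Hdac8, a class I enzyme that deacetylates the cohesin subunit SMC3, fell below the FPKM filter in every mouse. It had 0.567, 0.477, 0.632 and 0.465 FPKM with propionic acid, against 0.682, 0.513, 0.474 and 0.454 FPKM in control skin. Behind these values stood 321 to 429 reads in propionic acid libraries and 304 to 469 reads in control libraries, more than for Hdac9. With voom on genes of 10 or more recovered reads in at least 4 libraries, a fit added after the data were seen, the log2 fold change was 0.00, SE 0.18 (limma voom adjusted p = 1.00).

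Among class IIa genes, Hdac4 had the estimate farthest from 0 of the tested members in the limma fit, and it did not pass. That place rested on the fit. With muscle as a covariate the log2 fold change of Hdac4 was -0.04, the closest to 0 of all tested members. In that fit Hdac6 (0.19), Hdac5 (0.18), Hdac10 (0.15) and Hdac7 (0.10) were farthest from 0. Without control replicates 1 and 3, where Hdac4 was highest, the log2 fold change was -0.06 for Hdac4. It was 0.15 for Hdac10 and 0.08 for Hdac7 in that fit. Hdac4, a repressor of MEF2 targets known from muscle, bone and nerve (ENSMUSG00000026313, chr1:91928779-92195699), had 1.21, 1.44, 1.77 and 1.09 FPKM with propionic acid, against 1.80, 1.19, 1.92 and 1.79 FPKM in control skin. Control replicate 2 lay among the propionic acid values and propionic acid replicate 3 among the control values. The log2 fold change was -0.17, SE 0.14 (limma adjusted p = 0.878). The pseudocount shrinks differences at this level, and with voom on the recovered reads, 972 to 1557 with propionic acid and 1059 to 1699 in control skin, the log2 fold change was -0.30, SE 0.18 (adjusted p = 0.784). That interval runs from 0.612 to 1.07 times the control level, the widest reach below 1 among the members. Exons of all Hdac4 transcripts together share 3536 bases with Gm26720 on the opposite strand, whose reads cannot be told apart without the strand setting. In the Hdac4 transcript with the longest coding sequence, 1.08% of 50-base windows occur in Gm26720.

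Hdac5, the class IIa member with the highest level, had 17.1, 15.7, 14.96 and 12.9 FPKM in propionic acid skin, against 12.2, 14.6, 13.1 and 15.4 FPKM in control skin. Propionic acid replicates 1 and 2 were the highest, and replicates 3 and 4 fell among the controls. The log2 fold change was 0.12, SE 0.12 (limma adjusted p = 0.886), and 0.01 without control replicates 1 and 3, which held the lowest control values. Hdac5 and Hdac4 were 69.3% identical over 3060 aligned coding bases.

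Hdac7, known from endothelial cells and thymocytes, had 2.62, 2.62, 3.05 and 1.91 FPKM with propionic acid, against 3.03, 2.04, 2.62 and 2.64 FPKM in control skin. Both groups spanned nearly the same values, and the log2 fold change was -0.02, SE 0.14 (limma adjusted p = 0.988). It turned to 0.08 without control replicates 1 and 3. The 9 endothelial markers, all detected in every library, summed to between 115.8 and 197.8 FPKM in propionic acid skin and between 114.4 and 220.3 FPKM in control skin, and their part in the Hdac7 level was not tested.

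Hdac9, a class IIa gene known from muscle and regulatory T cells, was the scarcest member, at 0.166, 0.132, 0.250 and 0.142 FPKM with propionic acid, against 0.219, 0.143, 0.151 and 0.151 FPKM in control skin. One mouse in each group stood above the others, propionic acid replicate 3 and control replicate 1. The reads numbered 132 to 252 in propionic acid libraries and 146 to 224 in control libraries. With voom on the recovered reads the log2 fold change was 0.01, SE 0.24 (adjusted p = 0.996), and the interval of 0.696 to 1.46 times the control level is the widest among the 10.

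The class IIb gene Hdac6, whose product deacetylates tubulin and cortactin in the cytoplasm, had 3.05, 5.75, 3.92 and 3.90 FPKM in propionic acid skin, against 4.32, 4.10, 3.91 and 3.86 FPKM in control skin. The propionic acid mice included both the lowest and the highest value of all 8, with replicates 1 and 2 at the ends. The coefficient of variation was 27.5% with propionic acid and 5.19% in control skin, over 4 mice each, and this difference in spread was not tested. The log2 fold change was 0.01, SE 0.15 (limma adjusted p = 0.999), and it was -0.13 without propionic acid replicate 2.

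Hdac10, which deacetylates polyamines, had the smallest p of the tested members in limma on log2(FPKM + 1). It had 4.52, 4.62, 3.96 and 4.21 FPKM with propionic acid, against 3.94, 3.98, 3.80 and 3.64 FPKM in control skin. Propionic acid replicates 1, 2 and 4 lay above every control mouse, and replicate 3 lay within the control range. The means were 4.33 ± 0.302 with propionic acid and 3.84 ± 0.157 in control skin (SD, n = 4 each), and the log2 fold change was 0.14, SE 0.10 (limma adjusted p = 0.86). The interval of 0.945 to 1.28 times the control level holds for FPKM + 1. With voom on 380 to 439 recovered reads in propionic acid libraries and 344 to 387 in control libraries, the log2 fold change was 0.15, SE 0.14 (adjusted p = 0.844). Leaving out single mice gave log2 fold changes between 0.11 and 0.17.

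**Figure D3:**
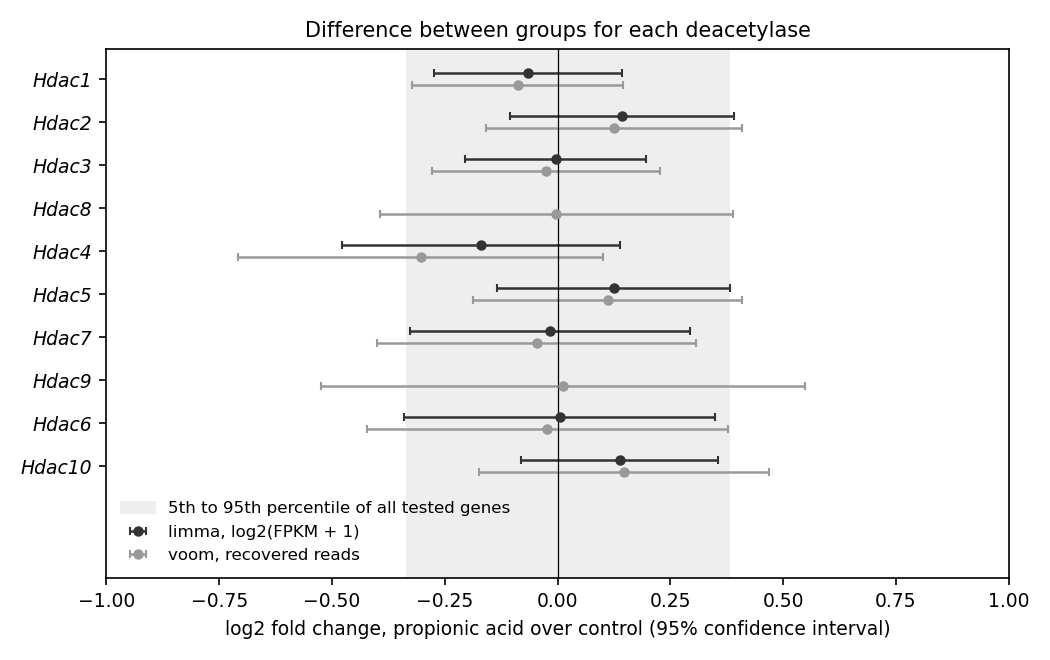
Log2 fold change of propionic acid over control (horizontal axis) for each deacetylase, with 95% confidence intervals, from limma on log2(FPKM + 1) (dark) and from voom on recovered reads (grey points); the shaded band covers the 5th to 95th percentile of the log2 fold change over tested genes, -0.33 to 0.38. Every interval includes 0, the estimates lie between -0.30 and 0.15, and Hdac8 and Hdac9 have only the voom estimate.

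Across mice, the 4 members with long gene models varied in part together. Hdac4, Hdac7, Hdac8 and Hdac9 all had high values in control replicate 1, where each ranked 1 or 2 of the 8 mice. In propionic acid replicate 3, Hdac7 and Hdac9 were highest and Hdac8 ranked 2 of 8. In propionic acid replicate 4 the same 4 genes ranked 7 or 8 of 8. Over the 6 pairs of these genes, Pearson's r of log2 FPKM across the 8 mice had a median of 0.65 and a range of 0.24 to 0.89, given as a description. Over the 15 pairs of the other members the median was 0.16 and the range -0.82 to 0.61.

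The libraries also differed in how many reads fell in genes with long models. Genes with an implied length over 15 kb, 710 in all and the same 4 deacetylases among them, held 1.65, 2.16, 2.44 and 1.56% of the reads in propionic acid replicates 1 to 4, against 2.33, 1.68, 2.04 and 2.43% in control replicates 1 to 4. The limit of 15 kb was chosen after the values were seen. The 3 libraries with the smallest share, propionic acid replicates 1 and 4 and control replicate 2, had the 3 lowest Hdac4 values and the 3 highest Hdac3 values. Hdac8 and Hdac9 did not follow the share in this way: the lowest Hdac8 value, 0.454 FPKM, was in control replicate 4 with 2.43% of reads in such genes, and the lowest Hdac9 value, 0.132 FPKM, was in propionic acid replicate 2 with 2.16%. Propionic acid replicates 1 and 4 and control replicate 2 also had the 3 largest sums of FPKM over all genes. These were 566183, 566669 and 555246, against 486414 to 513642 in the other 5 libraries. The part of this difference between libraries in the member values was not tested.

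**Figure D4:**
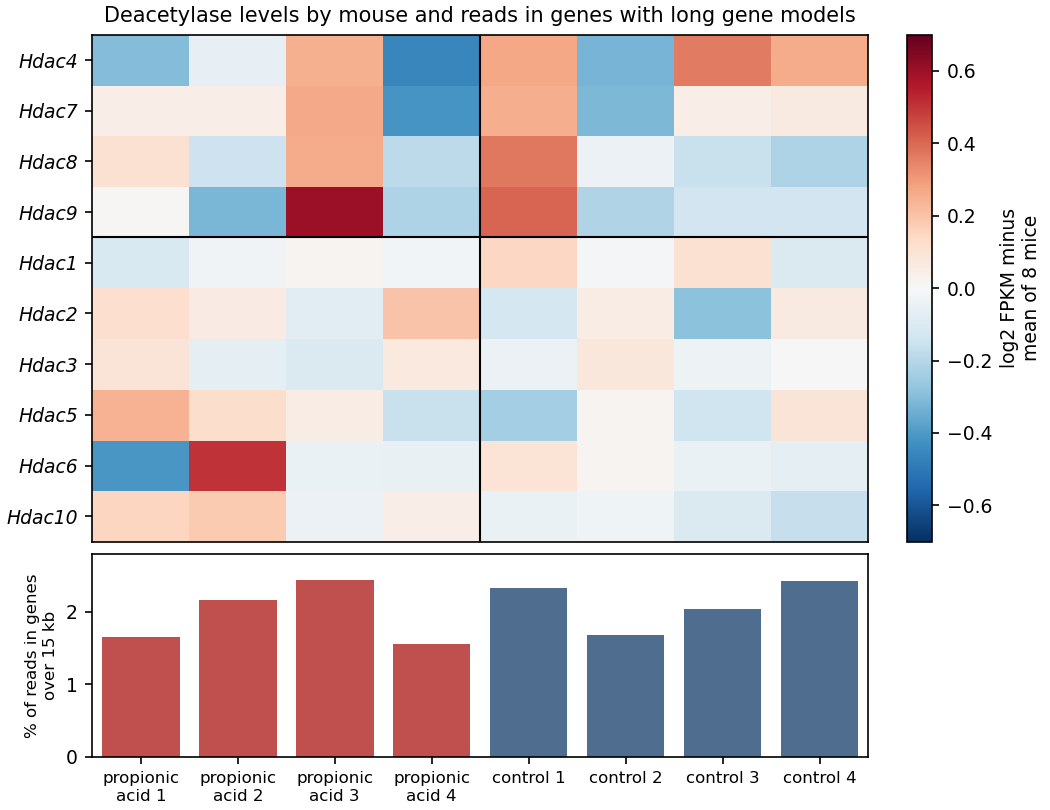
Upper panel, log2 FPKM of each deacetylase in each mouse minus the mean of the 8 mice (red high, blue low), with the 4 members with long gene models on top; lower panel, percent of reads in genes with an implied length over 15 kb, in propionic acid (red) and control (blue) libraries. Propionic acid replicate 3 and control replicate 1 are high for Hdac7, Hdac8 and Hdac9, propionic acid replicate 4 is low for Hdac4 and Hdac7, and Hdac6 is extreme in propionic acid replicates 1 and 2.

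By coding sequence, members of a class aligned over most of the shorter gene and members of different classes did not. The 6 pairs of class IIa genes were 62.4 to 69.3% identical over 83.0 to 96.4% of the shorter coding sequence. Hdac8 aligned with the other class I genes over 78.1 to 83.4% of its length at 55.95 to 58.95% identity. Hdac6 and Hdac10 aligned over 51.1% of Hdac10. Pairs from different classes aligned over at most 42.8% of the shorter sequence.

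The remaining deacetylases, from classes III and IV, did not pass either. These are the NAD-dependent sirtuins Sirt1 to Sirt7 and Hdac11, all 8 of which were tested. In propionic acid skin 7 averaged higher and 1 averaged lower (Sirt2 turned to lower with median-of-ratios scaling and with voom). With muscle as a covariate Hdac11, Sirt5 and Sirt7 turned instead, which made 4 higher and 4 lower, and without control replicates 1 and 3 Hdac11 and Sirt7 turned. In the limma fit without these changes the median log2 fold change was 0.09. Hdac11, which removes long fatty acyl groups, had 5.33, 2.74, 4.12 and 3.33 FPKM with propionic acid, against 3.24, 5.80, 2.26 and 2.71 FPKM in control skin, the widest spread of any deacetylase tested. Its interval ran from 0.757 to 1.62 times the control level. Sirt1, a nuclear sirtuin, averaged 7.36 ± 0.314 FPKM in propionic acid and 8.605 ± 1.97 in control skin (log2 fold change -0.18, limma adjusted p = 0.878), and mitochondrial Sirt4 1.89 ± 0.294 in propionic acid and 1.56 ± 0.453 in control skin (0.18, adjusted p = 0.874). Sirt2, the most abundant of this group, averaged 36.6 ± 2.18 FPKM with propionic acid and 36.5 ± 1.63 in control skin. For Sirt7 of the nucleolus the means were 23.4 ± 1.07 FPKM with propionic acid and 23.2 ± 3.12 in control skin. Sirt3 had 4.91 ± 0.475 FPKM with propionic acid and 4.55 ± 0.505 in control skin, Sirt5 had 1.53 ± 0.121 with propionic acid and 1.395 ± 0.306 in control skin. Sirt6 had 3.41 ± 0.568 with propionic acid and 2.91 ± 0.310 in control skin, and these 3 genes had a limma adjusted p of 0.86 or more.

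Partners of the deacetylases were read from 9 further lists. Over all 10 lists, 94 genes were tested, and 0 of them passed the adjusted threshold in limma. An unadjusted p under 0.05 was found for 2, Ywhaq and Gadd45a (2.13%, against 6.29% of all genes tested). The groups did not overlap for 2 of them, Mbd2 and Ywhaq (2.13%, against 3.16%).

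In the NCoR complex, which activates Hdac3, 4 of 4 tested genes averaged lower with propionic acid, and the median log2 fold change was -0.11. The subunit Tbl1x had the smallest p, with 10.5 ± 2.47 FPKM in propionic acid and 12.6 ± 2.86 in control skin (limma adjusted p = 0.88), and its direction turned with muscle as a covariate. Ncor1, chosen after its values were seen, had 8.94, 14.2, 16.0 and 6.50 FPKM with propionic acid, against 14.6, 7.47, 12.6 and 13.8 FPKM in control skin. Its 3 lowest values lay in the same libraries as those of Hdac4. This was not particular to Ncor1, since Tbl1x had its 3 lowest values there too. So did Ep300 and Rcor1 of other lists, also chosen after their values were seen. These were the 3 libraries with the smallest share of reads in genes with an implied length over 15 kb.

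In the complexes that carry Hdac1 and Hdac2, medians were close to 0, at 0.02 for Sin3 (15 genes), -0.03 for NuRD (11) and 0.02 for CoREST, MiDAC and MIER (12). The methyl-CpG binding protein Mbd2 of NuRD had 65.0, 65.4, 63.2 and 68.3 FPKM with propionic acid, against 70.1, 70.9, 76.3 and 70.2 FPKM in control skin. All 4 propionic acid values lay below all 4 control values, with a log2 fold change of -0.13 and an SE of 0.09 (limma adjusted p = 0.848). Among Sin3 genes, Suds3 averaged 17.6 ± 1.43 and Sin3a 7.28 ± 0.842 FPKM with propionic acid, against 15.9 ± 1.201 and 8.28 ± 1.27 FPKM in control skin. The NuRD subunit Mta3 had 8.33 ± 0.669 FPKM with propionic acid and 7.95 ± 0.737 in control skin. Rcor3 had 3.15 ± 0.270 with propionic acid and 3.71 ± 0.423 in control skin, and Trerf1 2.43 ± 0.557 with propionic acid and 2.05 ± 0.377 in control skin, with limma adjusted p of 0.848 or more for all of these.

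Class IIa enzymes are held in the cytoplasm by Ywha adaptor proteins after phosphorylation by kinases such as Sik1, and act on MEF2 factors in the nucleus. Of 20 tested genes on this list, 7 averaged higher and 13 lower, and the median log2 fold change was -0.03. Ywhaq had 84.6, 120.5, 89.5 and 95.1 FPKM with propionic acid, against 79.5, 70.6, 83.1 and 82.0 FPKM in control skin. The groups did not overlap, and the log2 fold change was 0.29, SE 0.13 (limma adjusted p = 0.786). Sik1 averaged 17.4 ± 5.92 FPKM in propionic acid and 24.9 ± 7.82 in control skin (log2 fold change -0.48, limma adjusted p = 0.848). Without control replicate 1, whose 13.3 FPKM lay far below the other controls, the log2 fold change of Sik1 was -0.75 (limma adjusted p = 0.635). Without propionic acid replicate 2 it was -0.34, and these were the ends of the range when single mice were left out. The log2 fold change of Ywhaq was 0.46 with muscle as a covariate and 0.19 without propionic acid replicate 2.

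The enzymes that oppose deacetylases and the proteins that read acetylated lysines did not pass. Of 9 tested acetyltransferases, 4 averaged higher and 5 lower. Kat8, which acetylates histone H4, had the smallest p, with 9.92 ± 0.854 FPKM in propionic acid and 8.45 ± 0.450 in control skin (limma adjusted p = 0.807), and Kat7 had 8.79 ± 1.26 with propionic acid and 9.77 ± 1.15 in control skin. Of 9 bromodomain genes, 1 averaged higher and 8 lower, with a small median log2 fold change of -0.04 and a range of -0.15 to 0.10. Brd2 had 35.5 ± 1.59 FPKM with propionic acid and 39.6 ± 4.03 in control skin. Brd8 had 5.95 ± 1.08 FPKM with propionic acid and 5.49 ± 0.953 in control skin.

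Genes known to respond to deacetylase inhibitors in cultured cells were read as a small list of 7, and 0 passed. With propionic acid 4 averaged higher and 3 lower, and the median log2 fold change was 0.01. The list was not split by the direction in which inhibitors are known to move each gene. These counts and the median therefore do not show whether a response was present. The actin-severing protein Gsn had 735.3, 444.03, 981.9 and 840.1 FPKM with propionic acid, against 617.7, 553.0, 409.3 and 481.02 FPKM in control skin, with a log2 fold change of 0.50 and an SE of 0.25 (limma adjusted p = 0.815). Propionic acid replicate 2 lay among the controls. With muscle as a covariate Gsn had a log2 fold change of 0.15, and leaving out single mice gave 0.35 to 0.73. The cell cycle inhibitor Cdkn1a, chosen after its values were seen, averaged 122.2 ± 14.5 FPKM in propionic acid and 114.3 ± 25.6 in control skin (limma adjusted p = 0.923). Control mice held both its lowest value, 80.0 FPKM in replicate 1, and its highest, 138.3 FPKM in replicate 3. The nucleotide enzyme Ctps had 8.17 ± 0.216 FPKM with propionic acid and 9.46 ± 2.17 in control skin. Of the Hdac4 and myogenin axis of denervated muscle, 1 of 6 genes in the table passed the filter. This gene, Gadd45a, a stress-response gene, had 16.8, 16.9, 10.9 and 25.4 FPKM with propionic acid, against 7.53, 12.7, 7.06 and 13.8 FPKM in control skin, with overlapping groups (log2 fold change 0.71, SE 0.27, limma adjusted p = 0.759). Without control replicates 1 and 3, where Gadd45a was lowest, its log2 fold change was 0.32.

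**Figure D5:**
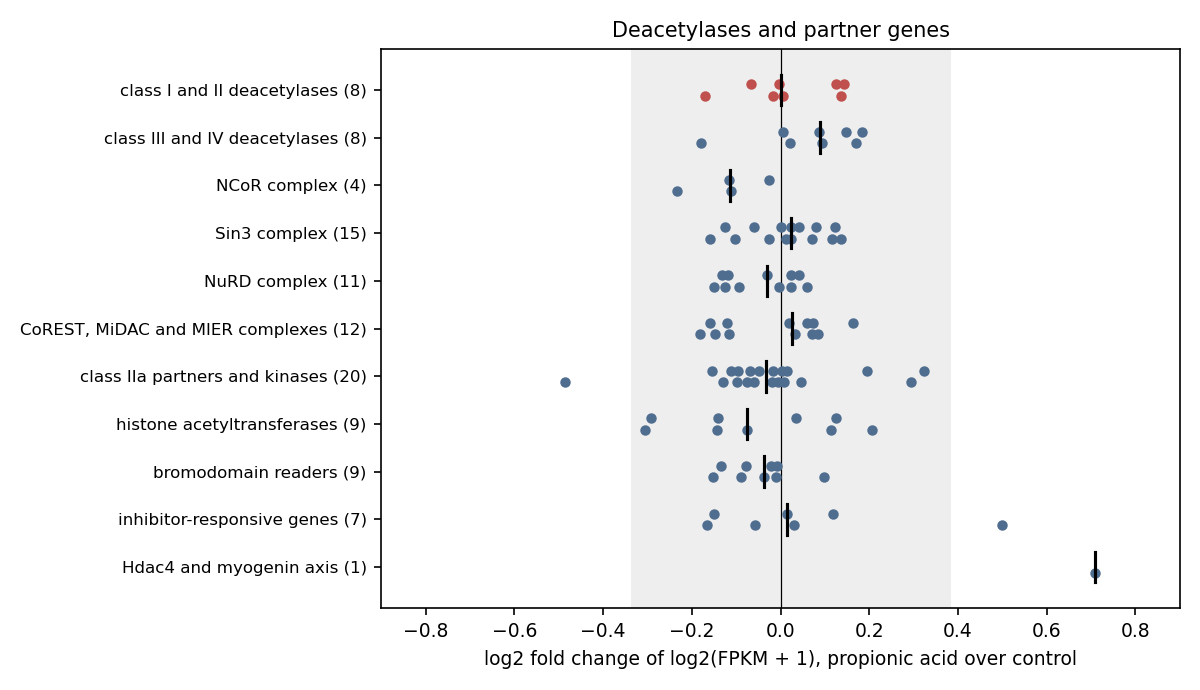
Log2 fold change of log2(FPKM + 1) for propionic acid over control (horizontal axis) of each tested gene in the class I and II deacetylases (red) and in the 10 lists (blue), with the number of genes in brackets; upright ticks mark medians and the shaded band the 5th to 95th percentile of tested genes. The deacetylases lie between -0.17 and 0.14, Sik1 lies lowest at -0.48, and Gsn (0.50) and Gadd45a (0.71) lie highest.

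For the 3 members with the largest differences in the limma fit, the genes most like them across the 8 mice were listed by Pearson's r of log2(FPKM + 1). The best matches were Ptpn12 (0.99) and Xpr1 (0.99) for Hdac4, Exosc7 (0.99) and Rbis (0.98) for Hdac2, and Gtf2e2 (0.96) and Gm15050 (0.93) for Hdac10. Such values are picked as the highest among the 12598 genes tested and rest on 8 libraries of like depth. An r over 0.9 was reached with Hdac4 by 3.57% of tested genes, with Hdac2 by 0.881% and with Hdac10 by 0.0556%.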

How the data were processed

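The authors deposited 1 table of FPKM values from bulk RNA sequencing of 8 skin samples, 4 per group. Reads were handled with CASAVA, cutadapt and HISAT2 2.1.0 against mm10, per the submitters' processing notes. Which program counted reads, with which strand setting and annotation, is not given in the sources used here. Libraries were made from 1 µg of TRIzol RNA with a VAHTS kit, per the labels' protocols.

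Whole reads were recovered from the FPKM steps for all 25378 genes (100.0%), within 0.01 of a read. Genes with 1 FPKM or more in at least 4 libraries were fitted with limma 3.58.1 (R 4.3.3) on log2(FPKM + 1), with trend and robust settings and group as covariate. Tests were 2-sided, with Benjamini-Hochberg adjustment over 12598 genes and a threshold of 0.05. Fold changes on this scale understate those of low genes. Voom used TMM scaling of recovered reads. The fitting step was tested on simulated data. Alternatives were other pseudocounts, filters, scalings and moderation, library weights, the replicate number as a block, muscle as a covariate, voom, and leaving out mice. Implied length is reads over FPKM and library total. Coding sequences (GENCODE vM21) were aligned locally with Biopython 1.88.

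The members, the 10 lists (109 entries, 107 in the table) and the tests were chosen with earlier results of these data known. One further gene of a list is not reported here. The text names all members, all class III and IV genes, from each other list the higher and lower gene with the smallest p, and 2 genes most like each of the 3 members with the largest change. Exceptions are marked as chosen after their values were seen.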

Additional observations from a re-analysis of the deposited data

Results flagged for a closer look

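In 80 sets of 4 values (40 named genes in 2 groups), 6 held 1 mouse that stood far from the other 3 of its group; chance flags about 1 set in 20. Hdac9 had 0.219 FPKM in control replicate 1, with 0.151 FPKM as the nearest value of its group. Mbd2 had 76.3 FPKM in control replicate 3, against 70.9 FPKM in the nearest. Mta3 had 7.33 FPKM in propionic acid replicate 4, with 8.58 FPKM nearest, and 9.04 FPKM in control replicate 2, with 7.73 FPKM nearest. Sik1 had 13.3 FPKM in control replicate 1, with 27.2 FPKM nearest. Sirt7 had 27.8 FPKM in control replicate 2, with 22.0 FPKM nearest.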

How the results depend on the processing

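Across 21 alternatives, 0 members passed an adjusted p of 0.05 and 0 had an unadjusted p under 0.05. Over all genes, the count past the threshold was 1 with library weights and 0 to 2 when single mice were left out (1 without control replicate 2, 2 without control replicate 3), none of them a member. The count at an unadjusted p under 0.05, 792 in the reported fit, was 1351 without a filter, 499 with a minimum of 5 FPKM, 1916 with library weights, 505 without control replicates 1 and 3, and 442 to 1238 when single mice were left out (524 without propionic acid replicate 1, 442 without control replicate 3, 1238 without control replicate 2). The split of these genes was 513 higher and 279 lower in the reported fit, against 461 and 332 with median-of-ratios scaling.

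Directions that turned all belonged to differences that were not called, and the cause was not tested. Without control replicates 1 and 3, an alternative chosen after seeing the data, the log2 fold changes were 0.024 for Hdac1, 0.0823 for Hdac7, -0.0708 for Hdac11, -0.0512 for Sirt7, 0.087 for Ctps, -0.00978 for Exosc7, -0.00825 for Mta3 and -0.0114 for Rbis. With muscle as a covariate they were 0.0957 for Hdac7, -0.1195 for Hdac11, 0.00147 for Kat7, 0.049 for Tbl1x, -0.00471 for Sirt5 and -0.0289 for Sirt7. With library weights they were 0.0445 for Hdac3 and -0.0905 for Hdac6. With median-of-ratios scaling, voom and voom with the read filter, Hdac6 was at -0.00421, -0.0108 and -0.0226, and Sirt2 at -0.00478, -0.00413 and -0.0155. Hdac8 was at 0.00541 without a filter. Leaving out single mice gave -0.0335 to 0.0284 for Hdac3, -0.1332 to 0.1132 for Hdac6, -0.0924 to 0.0765 for Hdac7, -0.0279 to 0.0323 for Sirt2 and -0.0189 to 0.1082 for Sirt7.

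The replicate numbers do not pair the mice by the labels, and same-numbered mice had correlations of -0.32, -0.08, 0.20 and -0.12 of their deviations. With the replicate number as a block, the count past the threshold was 0 and that at an unadjusted p under 0.05 was 700. Of the 4 propionic acid mice, 0 correlated best with the control of the same number.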
